A study of Arabidopsis thaliana with 9 samples.

Results

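The subject of this account is a group of 79 probe sets whose signal was high on 1 array, that of the second wild-type Col-0 replicate, and lower on all 8 others. A probe set is the group of probes on the array that reads 1 transcript. A probe set was chosen when its mean over the 9 arrays was at least 5.72 on the log2 scale and its log2 signal on Col-0 replicate 2 was at least 0.8 above the highest of the other 8 arrays. The rule picked 79 of 15922 probe sets that passed the filter on the mean, which is 0.496%. It used every array, so the difference between Col-0 replicate 2 and the rest is described and carries no test.

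The study measured RNA from germinating Arabidopsis thaliana seeds of 3 genotypes with 3 arrays each. The mARF10 seeds carried a transgene of AUXIN RESPONSE FACTOR10, with 2.3 kb of coding sequence under 3 kb of its own upstream region and fused to GFP, in which 4 mutations changed the target site of microRNA160. The ARF10 seeds carried that fusion with the target site unmutated. Col-0 is the wild-type accession, and its labels give no transgene. Both transgenes were thus driven by the upstream region of ARF10, and the labels used here do not say how many transformed lines were pooled. Seeds of all genotypes were wetted with 3 ml of water, kept dark and cold (4 °C) for 3 days, and then lit for 22 h at 22 °C. Replicates are named by the labels as independent biological ones, each made of 3 seed lots.

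Col-0 replicate 2 stood apart from the other libraries in both directions. The rule for the members found 79 probe sets on it, 11 on Col-0 replicate 3, 5 on mARF10 replicate 1, 1 on mARF10 replicate 3 and 0 on each of the other 5 arrays. Turned round, to at least 0.8 below the lowest other array, it found 129 probe sets on Col-0 replicate 2, 4 on ARF10 replicate 2, 3 on Col-0 replicate 1, 1 on ARF10 replicate 3 and 0 elsewhere. Col-0 replicate 2 was the highest of the 9 arrays for 26.3% of the tested probe sets and the lowest for 24.5%. The median signal of the arrays lay between 7.06 and 7.11, so the arrays shared a scale. No label says how far the seeds of each sample had germinated.

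**Figure D1:**
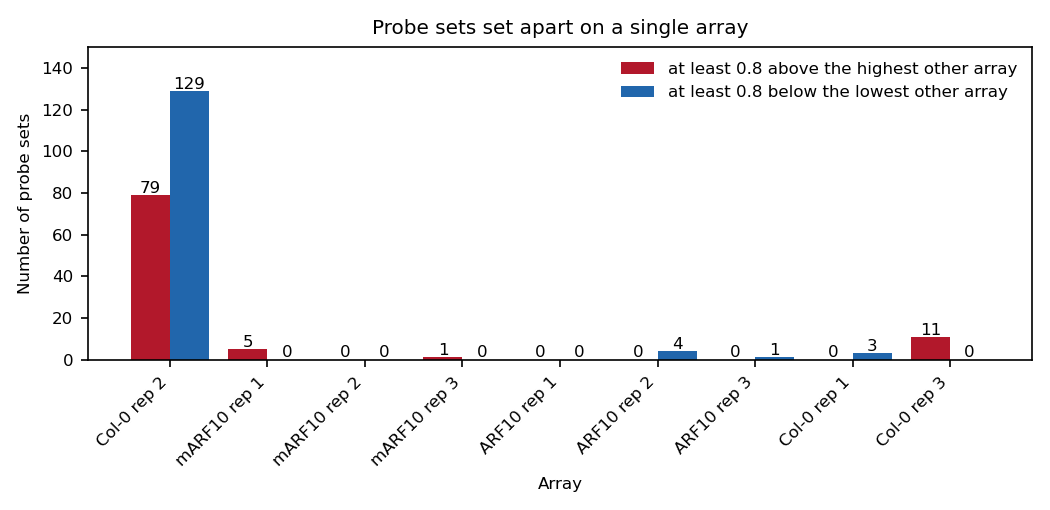
Number of probe sets (y axis) set apart on each single array (x axis) by the rule for the members, at least 0.8 log2 units above the highest other array (red) or below the lowest other array (blue). Col-0 replicate 2 had 79 high and 129 low probe sets, and no other array had more than 11.

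As background, a dry seed stores transcripts and proteins laid down during maturation, among them late embryogenesis abundant (LEA) proteins, hydrophilic proteins that protect cells during drying. After water uptake these transcripts are degraded, while the cell rebuilds its machinery for translation. Ribosome biogenesis takes place largely in the nucleolus, where ribosomal RNA is transcribed, cut, modified and assembled with proteins by small nucleolar ribonucleoproteins, RNA helicases, GTPases and assembly factors. Genes for photosynthesis are induced later, as the embryo turns green in light. The roles given to genes here are general knowledge of their families, for ribosome biogenesis mostly from yeast, and not results of these data.

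Of the 79 members, 43 named a single gene each, 2 matched several genes and 34 had no gene in the naming table. The named share was 54.4%, against 56.2% of the tested probe sets. The 43 named members stood for 43 different genes. Of these, 11 act in ribosome biogenesis, 2 in splicing or translation, 5 bind DNA or organise chromatin, 3 are LEA proteins and 5 are enzymes of lipid or secondary metabolism. The other 17 were of mixed or unsure role. This grouping was made after the values were seen.

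The members differed in how far they stood out. The gap between Col-0 replicate 2 and the highest other array ran from 0.80 to 1.69 with a median of 0.95, and 29 members had a gap of at least 1. Set against the median of the other 8 arrays, the signal was 0.88 to 2.37 log2 units higher, with a median of 1.25. On a linear scale that is 1.84-fold to 5.16-fold with a median of 2.37-fold, and 68 of the 79 members were at least 2-fold above that median. The mean log2 signal over the 79 members was 9.25 on Col-0 replicate 2. It was 7.93, 8.15 and 7.82 on the mARF10 arrays, 7.91, 8.07 and 7.98 on the ARF10 arrays, and 7.72 and 8.09 on Col-0 replicates 1 and 3.

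**Figure D2:**
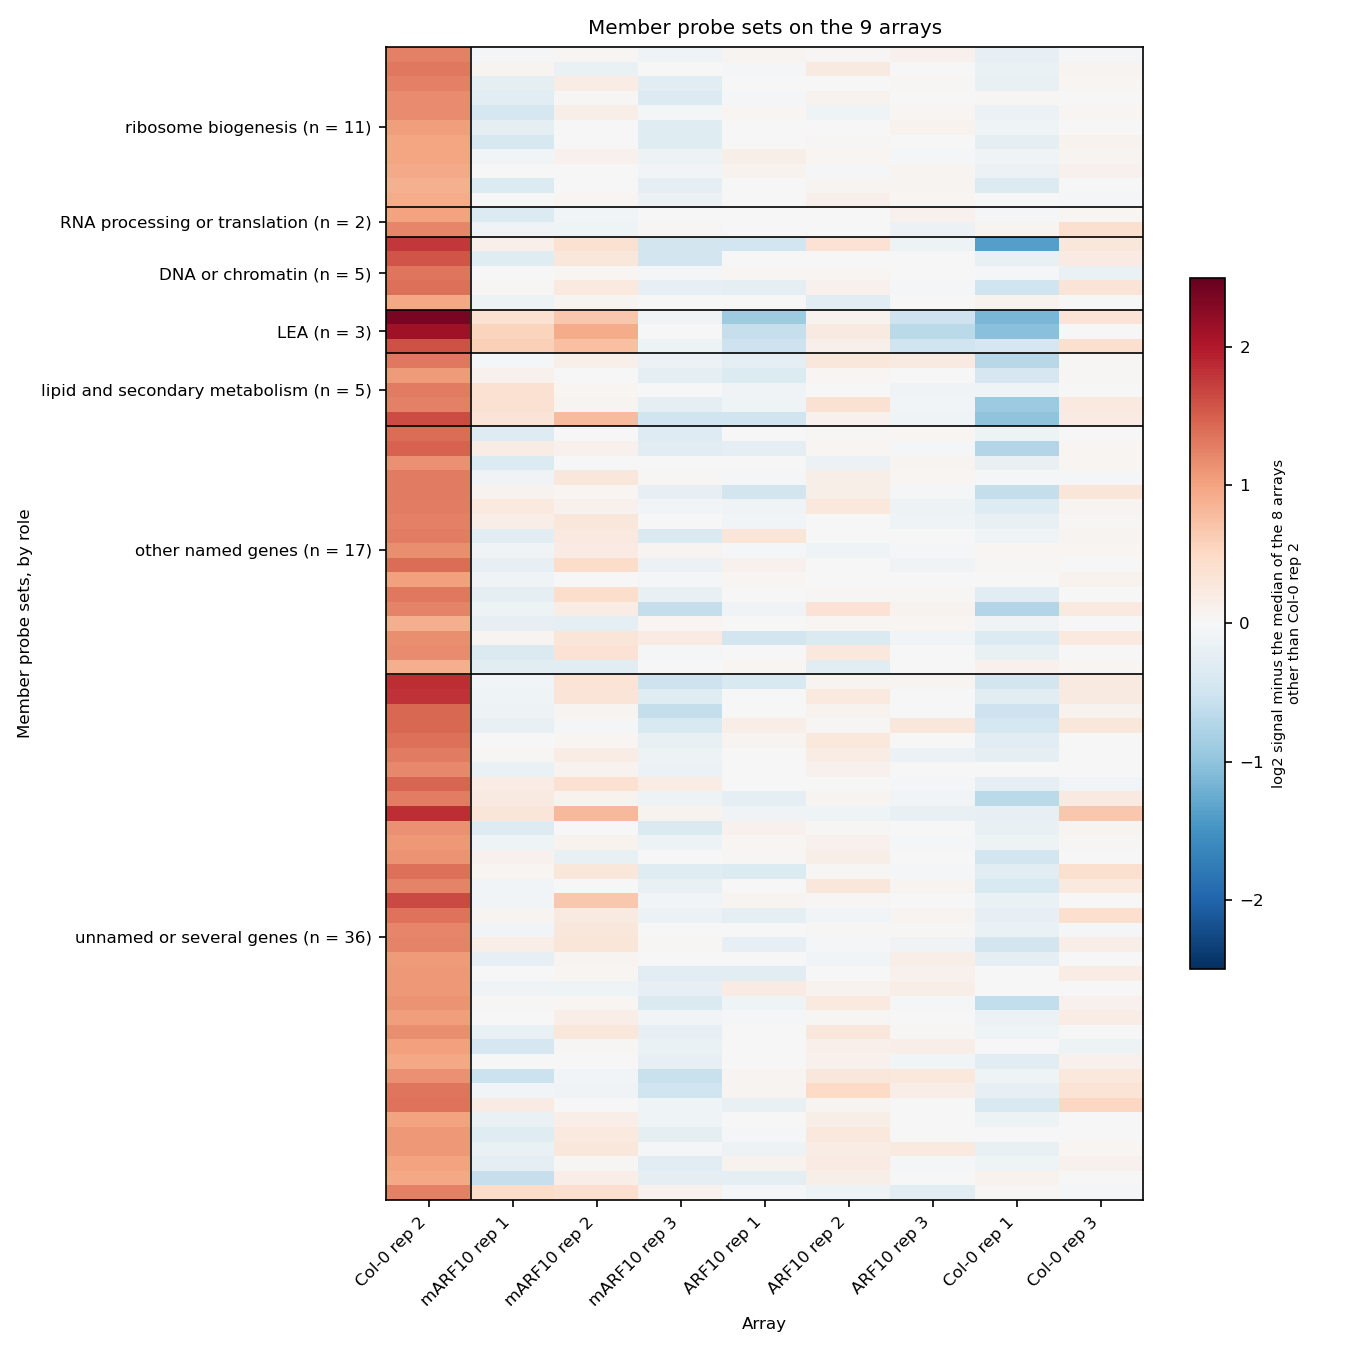
Log2 signal of each of the 79 member probe sets (rows, grouped by role) on each of the 9 arrays (columns), minus the median of the 8 arrays other than Col-0 replicate 2. Col-0 replicate 2 is 0.88 to 2.37 above that median in all rows, which the rule fixes. In the LEA rows mARF10 replicates 1 and 2 are above the median too, and Col-0 replicate 1 is below it.

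Among the ribosome biogenesis members, the GTPase and methyltransferase genes had the widest gaps. AT1G06720, which codes for a BMS1-like GTPase that acts in assembly of the small ribosomal subunit, had a log2 signal of 8.96 on Col-0 replicate 2. Its other values were 7.68, 7.73 and 7.59 on the mARF10 arrays, 7.78, 7.73 and 7.81 on the ARF10 arrays, and 7.50 and 7.68 on Col-0 replicates 1 and 3. The 8 other arrays thus lay within 0.31 of each other and the gap above them was 1.15. AT4G26600, a NOP2-type methyltransferase of ribosomal RNA, had 8.42 on Col-0 replicate 2, against 7.16, 6.94 and 7.09 in mARF10, 7.08, 7.32 and 7.11 in ARF10, and 6.93 and 7.16 in Col-0. The gap was 1.11.

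The core nucleolar proteins had similar gaps. AT3G12860, a NOP56-like core protein of the small nucleolar ribonucleoproteins that methylate ribosomal RNA, read 10.50 on Col-0 replicate 2. It read 9.06, 9.36 and 8.99 in mARF10, 9.29, 9.42 and 9.31 in ARF10, and 9.35 and 9.34 in Col-0. AT2G40430, a relative of the yeast large-subunit factor Nop53, read 10.90 on Col-0 replicate 2, against 9.40, 9.82 and 9.38 in mARF10, 9.63, 9.65 and 9.68 in ARF10, and 9.46 and 9.70 in Col-0. Both genes had a gap of 1.08, and mARF10 replicate 2 was the highest of the 3 mARF10 arrays in both.

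The factor AT5G38720, of the RRP7 family that acts in small-subunit processing, had 10.12 on Col-0 replicate 2. It had 8.52, 9.09 and 8.89 in mARF10, 8.98, 8.82 and 8.99 in ARF10, and 8.78 and 8.99 in Col-0. AT3G01160, an ESF1-like pre-rRNA processing factor, had 9.42 on Col-0 replicate 2, against 8.12, 8.37 and 8.08 in mARF10, 8.37, 8.38 and 8.45 in ARF10, and 8.27 and 8.37 in Col-0. In both genes mARF10 replicate 1 lay among the lowest arrays, and the arrays of the 3 genotypes overlapped.

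The other 5 genes of this group had gaps from 0.81 to 0.91. They were AT2G18220 of the Noc2 family and AT1G79150 of the Noc3 family, which in yeast mature and export the large subunit, AT3G24080 of the KRR1 family, which in yeast assembles the small subunit, and AT5G05450 and AT5G54910, which code for DEAD-box helicases that unwind RNA. AT1G79150 had a second probe set on the array, which read 10.35 on Col-0 replicate 2 and between 9.13 and 9.67 on the others. That gap of 0.68 was in the same direction and missed the threshold. Over the 11 genes, the 8 other arrays spanned 0.25 to 0.57 log2 units per gene. The rule asks for a gap of at least 0.8, so it fixes that each gap here exceeds that spread.

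Outside the 79, ribosome biogenesis genes were also mostly highest on Col-0 replicate 2. A list of 49 such genes, written after the values had been seen, held 26 tested genes, and 11 of these were members. Of the other 15, Col-0 replicate 2 was the highest of 9 arrays for 13 and the lowest for 0, with a median of 0.46 above the median of the other 8 arrays and a range of -0.14 to 0.93. Across all tested probe sets that median was 0.00, and Col-0 replicate 2 was the highest for 26.3% and the lowest for 24.5%. Examples are AT3G05060, a NOP58-like partner of NOP56, with 11.82 on Col-0 replicate 2 and 10.57 to 11.13 on the others, and AT3G22660, of the rRNA processing family of EBP2, with 11.28 and 10.25 to 10.71. The 2 exceptions were PRH75 (AT5G62190), an RNA helicase gene, with 12.43 against 12.14 to 12.68, and AT1G06560, of the NOP2-like methyltransferase family, with 8.76 against 8.73 to 9.12.

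The mean over the 26 tested genes of the list was 10.29 on Col-0 replicate 2. The other arrays had 9.48, 9.58 and 9.40 in mARF10, 9.61, 9.72 and 9.61 in ARF10, and 9.49 and 9.67 in Col-0. After quantile normalisation or median centring of each array, Col-0 replicate 2 remained the highest array for 24 of the 26 genes, and it was the lowest for 1. The 26 include the 11 members, which the rule chose for a high value on this array. Of the 15 others, Col-0 replicate 2 was the highest for 13 and the lowest for 1 under either scaling. Of all 15922 tested probe sets it was the highest for 4191 with quantile normalisation and 3836 with median centring. It was the lowest for 3936 and 4232.

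The LEA genes AT5G44310 and AT4G21020 had the largest differences of all 79 members from the median of the other 8 arrays, at 2.37 and 2.11, and the 3 LEA members varied widely among those 8 arrays too. AT5G44310 read 11.11 on Col-0 replicate 2. It read 9.12, 9.42 and 8.65 in mARF10, 7.86, 8.83 and 8.22 in ARF10, and 7.60 and 9.09 in Col-0. Its gap of 1.69 was the widest of the 79 members, and the other 8 arrays spanned 1.82. AT4G21020 read 11.58 on Col-0 replicate 2, against 10.03, 10.40 and 9.46 in mARF10, 8.90, 9.69 and 8.80 in ARF10, and 8.43 and 9.47 in Col-0. AT1G32560 (AtLEA4-1) read 13.28 on Col-0 replicate 2, against 12.28, 12.44 and 11.57 in mARF10, 11.18, 11.81 and 11.20 in ARF10, and 11.27 and 12.09 in Col-0. In all 3 genes replicate 2 was the highest array of mARF10 and of ARF10, and Col-0 replicate 3 was above Col-0 replicate 1.

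**Figure D3:**
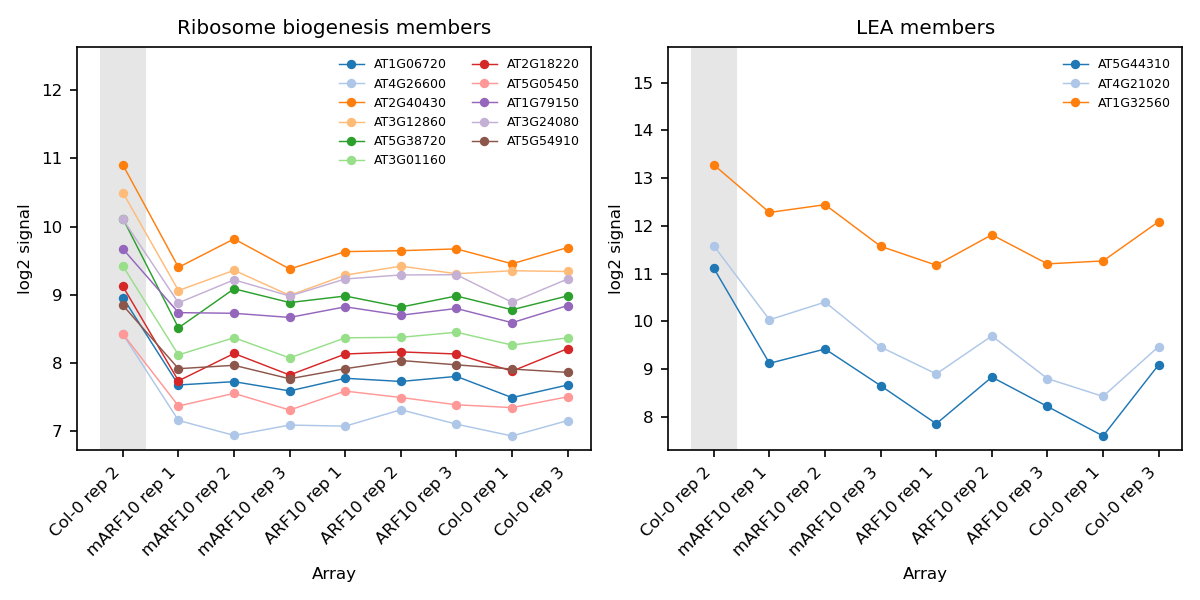
Log2 signal (y axis) of the 11 ribosome biogenesis members (left) and the 3 LEA members (right) on the 9 arrays (x axis), with Col-0 replicate 2 shaded. Lines join the values of 1 gene and imply no order of arrays, and the lines of different genes are not compared in height. The ribosome biogenesis genes span 0.25 to 0.57 over the 8 other arrays and the LEA genes 1.27 to 1.98.

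The wider LEA and dehydrin list held genes on both sides. Of its 57 genes 34 were tested, and 31 of these were not members. Among the 31, Col-0 replicate 2 was highest for 11 and lowest for 3, against 26.3% and 24.5% of all tested probe sets. The 31 genes had a median of 0.48 above the median of the other arrays and a range of -0.96 to 1.56. The LEA4-5 gene (AT5G06760) was just short of the rule, with 12.50 on Col-0 replicate 2 and 10.74 to 11.73 on the others. At the other end AT2G03850 read 6.90 on Col-0 replicate 2, below all others, which lay between 6.92 and 8.68. The mean over the 34 genes was 9.45 on Col-0 replicate 2, 9.40, 9.28 and 9.02 in mARF10, 8.31, 8.54 and 8.23 in ARF10, and 8.51 and 9.16 in Col-0. This mean includes the 3 LEA members, which the rule made high on Col-0 replicate 2, so its rank among the arrays is not free of the rule. The mARF10 arrays and Col-0 replicate 3 thus lay near Col-0 replicate 2 on this list, and the ARF10 arrays and Col-0 replicate 1 lay lower.

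No tested gene of the seed storage protein and oil body lists was a member, against 0.496% of all tested probe sets. Only 5 of the 15 storage protein genes and 4 of the 13 oil body genes were tested, since most were not named. A count of 0 among so few genes is near that share. Whether the 34 unnamed members include others of these genes is not known. Col-0 replicate 2 was the highest array for 1 storage protein gene and 0 oil body genes, against 26.3% of all tested probe sets. It was the lowest for 0 genes of either list, against 24.5%. Relative to the median of the other 8 arrays, the storage protein genes had a median of 0.79 and a range of -0.11 to 1.34. The oil body genes had a median of 0.18 and a range of -0.14 to 0.86. Across all tested probe sets that median was 0.00. PAP85 (AT3G22640), a vicilin-type storage protein gene, read 10.23 on Col-0 replicate 2, 11.43, 9.65 and 10.55 in mARF10, 7.29, 7.74 and 6.57 in ARF10, and 8.14 and 10.76 in Col-0. Col-0 replicate 2 was therefore within the range of the other arrays for this gene. The regulators of seed maturation EEL and BZIP53 read 6.06 and 9.59 on Col-0 replicate 2, against 6.01 to 7.37 and 9.68 to 9.94 on the others.

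Photosynthesis genes lay on the opposite side. The photosynthesis list held 40 genes, of which 8 were tested. All 8 were lowest on Col-0 replicate 2, against 24.5% of all tested probe sets. Their median was -1.13 relative to the median of the other arrays. PRK, the phosphoribulokinase of the Calvin cycle, read 6.77 on Col-0 replicate 2 and 8.25 to 9.33 on the others. PORB, which makes chlorophyllide in the light, read 8.48 on Col-0 replicate 2 and 9.52 to 10.95 on the others. The 8 genes averaged 8.41 on Col-0 replicate 2, 9.45, 9.21 and 9.82 in mARF10, 9.96, 9.61 and 9.85 in ARF10, and 9.78 and 9.51 in Col-0. Because an array reads a whole seed sample, fewer cells of a type and less RNA per cell cannot be told apart here.

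The remaining lists, for other events of germination, held few tested genes. The 4 tested genes of storage oil breakdown had a median of 0.05 and the 5 of gibberellin metabolism and signalling a median of 0.00 relative to the other arrays. The 7 heat shock genes had a median of -0.06. Of the 7 cell wall loosening genes 4 were highest on Col-0 replicate 2 and 2 were lowest, against 26.3% and 24.5% of all tested probe sets. EXPA15, an expansin gene, read 10.77 on Col-0 replicate 2 and 8.99 to 10.15 on the others. PRL (AT4G02060), a gene of the complex that licenses DNA replication and the tested gene of the cell cycle list, read 8.74 on Col-0 replicate 2 and 8.92 to 9.55 on the others. The annotation named no tested gene of the abscisic acid signalling list. The gene tested for the abscisic acid and drought response list, AT4G18920, was highest on Col-0 replicate 2, with 7.79 against 6.64 to 7.18 on the others.

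Markers of the other seed tissues were few. The seed coat gene BAN read 6.53 on Col-0 replicate 2 and 6.33 to 6.68 on the others. Of the 2 tested endosperm genes, SAG29 was lowest on Col-0 replicate 2 with 9.44 against 9.97 to 10.58, and AT1G71250 was a member. AT1G71250, a GDSL-type lipase gene, read 8.86 on Col-0 replicate 2, 7.55, 8.02 and 6.74 in mARF10, 6.72, 7.34 and 7.12 in ARF10, and 6.22 and 7.43 in Col-0. The part of tissue make-up in the members was not tested.

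**Figure D4:**
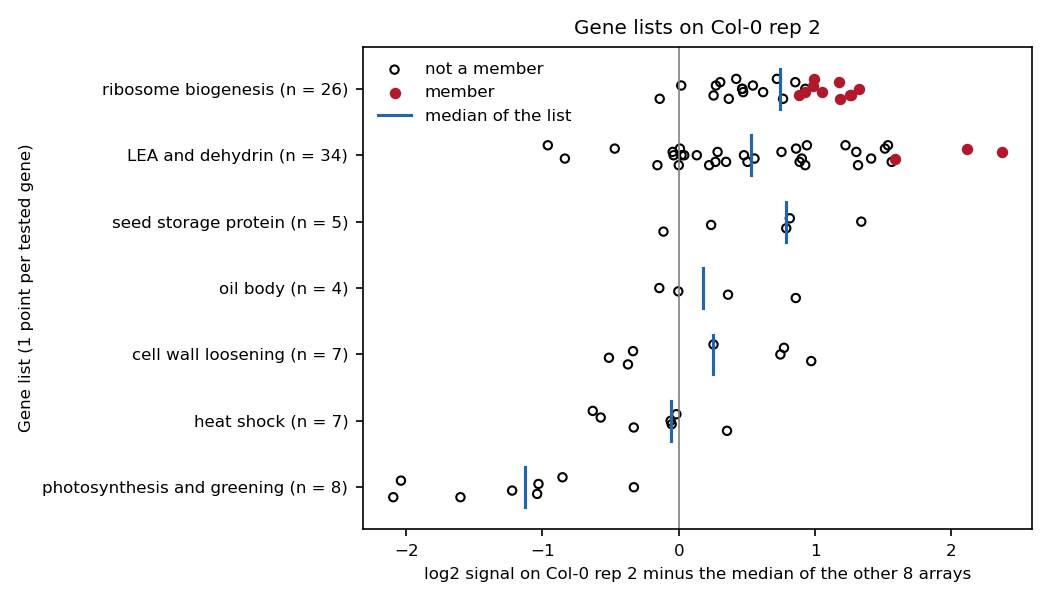
Log2 signal on Col-0 replicate 2 minus the median of the other 8 arrays (x axis) for each tested gene of 7 gene lists (rows), with members filled and the list median as a blue bar. The ribosome biogenesis list, written after the values were seen, has a median of 0.74 with its members included. Over its 15 genes without a member probe set the median is 0.46. The photosynthesis list, which holds no member, has a median of -1.13. AT1G79150 is drawn as no member because its brighter probe set, which stands for the gene here, missed the threshold.

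Among the DNA-binding and chromatin members AT5G10120 had a gap of 1.38, the second widest of the named genes. AT5G10120 and AT5G65100 code for EIN3-like proteins, of the family of transcription factors that acts in ethylene responses. AT5G10120 read 11.22 on Col-0 replicate 2, 9.58, 9.84 and 8.99 in mARF10, 8.98, 9.81 and 9.32 in ARF10, and 8.08 and 9.73 in Col-0. AT5G65100 read 7.27 on Col-0 replicate 2 and 5.40 to 6.22 on the 8 others. Col-0 replicate 1 was the lowest array for both genes, and replicate 2 was the highest mARF10 and the highest ARF10 array for both.

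AT5G19490, a histone-fold protein gene, read 8.08 on Col-0 replicate 2 and 6.06 to 6.80 on the others, with a gap of 1.28. AT3G48710, whose protein has a DEK domain that binds chromatin, read 7.20 on Col-0 replicate 2, against 5.88, 5.93 and 5.85 in mARF10, 5.93, 5.91 and 5.86 in ARF10, and 5.82 and 5.70 in Col-0. Its 8 other arrays spanned only 0.23 and lay close to the filter of 5.72. AT1G15940, a PDS5-like cofactor of cohesin, the ring complex that holds sister chromatids together, had 7.43 on Col-0 replicate 2 and 6.20 to 6.56 on the others. In the group for RNA, AT2G44200, of the CWC25 splicing factor family, had a gap of 0.88, and AT1G21160, of the family of translation initiation factor eIF5B, one of 0.83.

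The 5 metabolic members included AT3G44830, a PDAT2-type acyltransferase of the family that makes triacylglycerol, the storage oil of seeds. It read 7.99 on Col-0 replicate 2, 7.04, 6.93 and 6.68 in mARF10, 6.59, 6.98 and 6.93 in ARF10, and 6.50 and 6.96 in Col-0. The terpene synthase gene AT4G20230 read 7.49 on Col-0 replicate 2 and 5.48 to 6.44 on the others. The flavin monooxygenase family gene AT1G12130 read 7.52 on Col-0 replicate 2 and 6.12 to 6.61 on the others, and the acyltransferase gene AT2G39980 read 11.23 and 9.08 to 10.35. In all 5 genes, counting the lipase AT1G71250, replicate 2 was the highest ARF10 array and Col-0 replicate 1 was the lowest of the 8 others.

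The 17 remaining named members covered many roles. AT5G22320, a gene for a leucine-rich repeat protein, read 9.42 on Col-0 replicate 2, 7.70, 8.03 and 7.70 in mARF10, 8.02, 8.05 and 8.06 in ARF10, and 7.89 and 8.02 in Col-0. AT3G16120, of the dynein light chain family, had a gap of 1.28, with 8.36 on Col-0 replicate 2 and 6.15 to 7.08 on the others. AT1G33970, an AIG1-like GTPase gene, and AT4G23050, a Raf-like kinase gene with a PAS domain, both had a gap of 1.01. AT4G36860, of the LIM-domain family of DA1, which limits organ size, had one of 0.99. AT5G57120, which codes for a nucleolar phosphoprotein and was not counted in the ribosome biogenesis group, read 11.02 on Col-0 replicate 2 and 9.47 to 10.18 on the others.

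Smaller gaps were seen for AT5G52070 (0.98), which codes for an Agenet-domain protein, for AT5G14440 (0.95), of the Surfeit locus 2 family, and for AT3G55520 (0.90), an FKBP-type peptidyl-prolyl isomerase gene. AT5G11420, a DUF642 cell wall protein gene, read 13.53 on Col-0 replicate 2 and 11.55 to 12.65 on the others. AT5G53800, AT4G08310, AT4G33740 and AT3G13780, to which no sure role was given, had gaps of 1.08, 1.03, 0.97 and 0.94. The 34 unnamed members had gaps of 0.80 to 1.51.

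Around the threshold the members merged into the rest. Just inside were AT3G52030 (gap of 0.801), an F-box protein gene, AT5G54910 (0.809) and AT3G24080 (0.812). Just outside were AT4G02400 (0.795), AT5G10950 (0.794) and AT3G13940 (0.792). AT4G02400 codes for a UTP-family protein of the U3 ribonucleoprotein, which cuts ribosomal RNA. A threshold of 1.0 would leave 29 members and one of 0.6 would give 209. The count was 122 without mARF10 replicate 2, the array that was highest of the other 8 for 26 of the 79 members.

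Members varied more than most genes among the 8 arrays other than Col-0 replicate 2. The range over those 8 had a median of 0.56 for members and 0.35 for all tested probe sets. It was at least 1 for 9 of the 79 members, against 2.96% of tested probe sets, and under 0.5 for 35 members, against 78.7% of tested probe sets. Col-0 replicate 1 was the lowest of the 8 arrays for 36 members, or 45.6%, against 11.8% of the tested probe sets. Col-0 replicate 3 was above Col-0 replicate 1 in 66 members, or 83.5%, against 47.6%. In 5 members at least 1 of the other arrays read under the filter of 5.72, and in 1 of these the median of the 8 did.

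The second replicates of the transgenic genotypes leaned the same way as Col-0 replicate 2. Replicate 2 was the highest of the 3 mARF10 arrays for 61 members, or 77.2%, against 32.1% of tested probe sets. It was the highest of the 3 ARF10 arrays for 46 members, or 58.2%, against 29.8%. Both held for 33 members, or 41.8%, against 12.1%. With quantile normalisation these member counts were 64, 50 and 38, while the shares over all tested probe sets were higher as well, at 38.4%, 38.9% and 17.5%. With median centring they were 63, 54 and 42, against 38.5%, 37.7% and 17.7% of all. The ribosome biogenesis genes were uneven in this. Replicate 2 was the highest mARF10 array for 9 of the 11 members and the highest ARF10 array for 4 of them, or 36.4%. These counts were 10 and 6 with quantile normalisation, and 10 and 5 with median centring. Among the 15 such genes that were not members replicate 2 was the highest mARF10 array for 10 and the highest ARF10 array for 14. There the counts were 11 and 14 with quantile normalisation, and 12 and 14 with median centring. These shares describe the arrays, since the probe sets are not independent of each other.

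A technical measure moved with replicate number too. The bacterial hybridisation controls BioB, BioC and BioD, spiked into each sample, averaged 8.50 on Col-0 replicate 2, 8.69 on mARF10 replicate 2 and 8.61 on ARF10 replicate 2, against 8.73 to 8.90 on the other 6 arrays. In 6 of these 14 control probe sets all replicate 2 arrays were below all others. The Cre hybridisation controls did not separate, with 12.52 to 12.57 on the replicate 2 arrays and 12.50 to 12.67 on the others. The difference between the 3′ and 5′ probe sets of GAPDH, a sign of RNA integrity, was 0.61 on Col-0 replicate 2 and 0.60 on mARF10 replicate 2, against 0.14 to 0.45 on the others. ARF10 replicate 2 had 0.25, so this difference did not follow replicate number. For actin it was 2.74 on Col-0 replicate 2, against 2.34 to 2.86, and for ubiquitin 1.71, against 1.54 to 1.77. The part of hybridisation, RNA integrity and replicate number in the members was not tested.

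The genotype contrasts were fitted without Col-0 replicate 2, the array on which the members are high. The other 8 arrays entered the rule too, through their highest value and the filter on the mean, so these contrasts are not independent of the choice of members. A linear model (limma) compared mARF10 (3 arrays), ARF10 (3 arrays) and Col-0 (2 arrays) over the 15922 tested probe sets, with Benjamini-Hochberg adjustment and a threshold of 0.05. These 3 contrasts share arrays, and values are given side by side.

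In mARF10 against ARF10, 267 of all tested probe sets passed, 1.68%, and 0 of the 79 members did. At an unadjusted p under 0.05 there were 14 members, against 16.4% of all tested probe sets. Of these 6 were higher in mARF10, against 8.31% of all, and 8 were lower, against 8.14% of all. The arrays of the 2 genotypes did not overlap for 13 members, against 22.3% of all. The differences ran from -0.59 to 0.83 with a median of -0.08, and the median over all tested probe sets was -0.02. That median was -0.03 without mARF10 replicate 1, mARF10 replicate 3 or ARF10 replicate 2, near that of all probe sets, and -0.13 without mARF10 replicate 2. With arrays weighted by their fit 5 members passed, or 6.33%, AT5G22320 and AT3G01160 among them, against 6.3% of all tested probe sets. With a replicate block 1 passed, or 1.27%, against 1.39% of all, and 1 passed without mARF10 replicate 2 (1.05% of all) or without mARF10 replicate 3 (0.747% of all).

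The role groups had estimates of different sign in this contrast, and the difference between groups was not tested. All 3 LEA members were higher in mARF10 in the estimate. AT4G21020 averaged 9.97 in mARF10 and 9.13 in ARF10, a difference of 0.83 with a standard error of 0.33 and an adjusted p of 0.254 from limma. AT1G32560 differed by 0.70 (adjusted p of 0.254) and AT5G44310 by 0.76 (adjusted p of 0.343) in the same fit. Over the whole LEA and dehydrin list 33 of 34 genes had a positive difference (32 with median centring), against 42.8% of all tested probe sets. The median over the 34 genes was 0.74. Of these, 7 rose in mARF10 at the threshold, against 1.16% of all tested probe sets, and 0 fell, against 0.521%. None of the 7 was a member. The M17 gene (AT2G41260) rose by 3.84 with a standard error of 0.50 and an adjusted p of 0.00826 by limma, and AT3G02480 by 0.97 with an adjusted p of 0.00605.

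All 11 ribosome biogenesis members had a negative difference in mARF10 against ARF10, from -0.24 to -0.06 with a median of -0.10, and 0 passed. Of all 15922 tested probe sets 9111 had a negative difference, and the genes of a list are not independent of each other. Over the 26 tested genes of the wider list, which was written after the values were seen, the difference was negative in all 26. Their median was -0.14 and their smallest adjusted p was 0.134 by limma. The 15 that are not members were negative in all 15, and these directions were the same with quantile normalisation and median centring. With each mARF10 or ARF10 array left out in turn, an alternative chosen after seeing the data, 25 or 26 of the 26 were negative. AT3G01160 differed by -0.21 with a standard error of 0.088 and an adjusted p of 0.279, and AT3G24080 by -0.24 with an adjusted p of 0.308. Of the photosynthesis list 7 of 8 genes were negative and 0 passed. Outside these groups AT5G35660, a glycine-rich protein gene, had 7.68 in mARF10 and 7.19 in ARF10, with an adjusted p of 0.162, and AT5G22320 had 7.81 and 8.04, with an adjusted p of 0.269.

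**Figure D5:**
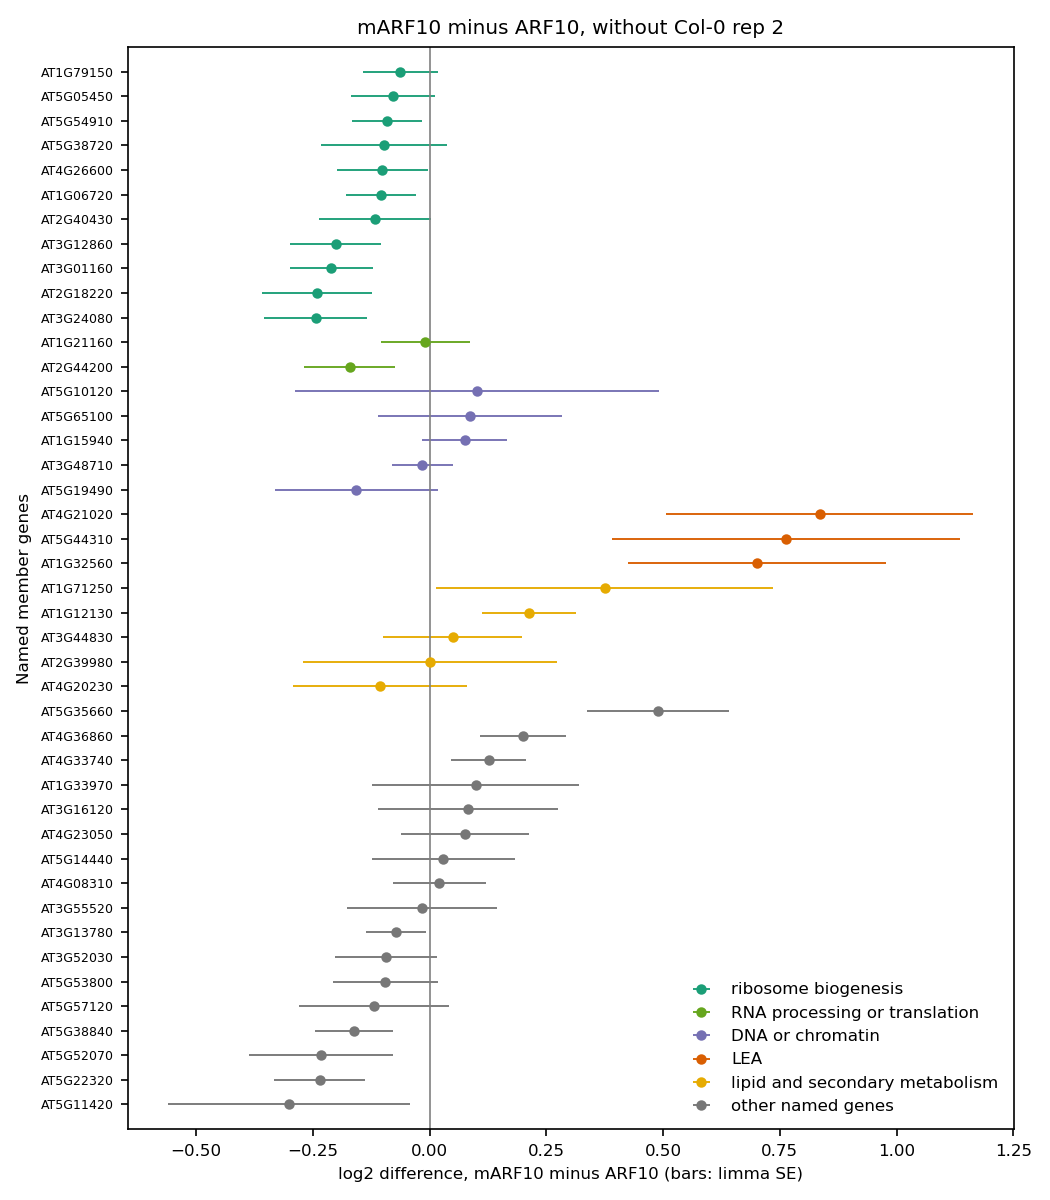
Log2 difference of mARF10 minus ARF10 (x axis) for the 43 named members (rows, coloured by role), fitted without Col-0 replicate 2, with limma standard errors as bars. The 3 LEA genes lie at 0.70 to 0.83 and the 11 ribosome biogenesis genes at -0.24 to -0.06, and no member passed the threshold.

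In mARF10 against Col-0, 11 of all tested probe sets passed, 0.0691%, and 0 members did. At an unadjusted p under 0.05 there were 5 members, against 8.64% of all, and 8 members did not overlap between the genotypes, against 21% of all. The members' median difference was 0.01, and 43 of them were positive, against 47.2% of all tested probe sets. The sign of that median depended on single arrays. It was -0.13 with 18 positive without Col-0 replicate 1, -0.06 with 30 positive without mARF10 replicate 2, and 0.17 with 58 positive without Col-0 replicate 3. AT4G21020 averaged 9.97 in mARF10 and 8.95 in Col-0, a difference of 1.02 with a standard error of 0.37 and an adjusted p of 0.510 by limma. Col-0 replicates 1 and 3 read 8.43 and 9.47 for this gene. AT1G21160 differed by -0.29 (adjusted p of 0.514), AT4G36860 by 0.22, AT3G52030 by -0.24 and AT3G12860 by -0.21, and none of them passed.

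In ARF10 against Col-0, 0 of all tested probe sets passed in limma, with 778 (4.89%) at an unadjusted p under 0.05. No member passed, and 1 had an unadjusted p under 0.05. The genotypes did not overlap for 15 members, against 18.6% of all. The members' median difference was 0.10, against 0.01 for all tested probe sets, and 59 of 79 were positive, against 54.2% of all. Without Col-0 replicate 1 the median was -0.06 with 28 positive, without Col-0 replicate 3 it was 0.20 with 70 positive, and without ARF10 replicate 2 it was 0.06. With a replicate block, for the pairing by number, it was 0.03 with 49 positive. The gene with the unadjusted p under 0.05 was AT1G21160, with 6.36 in ARF10 and 6.64 in Col-0 (adjusted p of 0.998). AT1G06720 (0.18), AT4G20230 (0.42), AT3G48710 (0.14) and AT3G24080 (0.21) were higher in ARF10 in the estimate and did not pass. With 2 Col-0 arrays left, these contrasts resolve only differences that are large against the spread between arrays.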

How the data were processed

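Total RNA of germinating seeds was amplified and labelled with biotin, per the labels' protocols, and read on a 1-colour array. The table deposited by the authors gives every array 1 log2 signal for each probe set. How background and scale were treated, and the log base, are not given in the sources. A base of 2 fits values between 3.70 and 14.78, below the 16 bits of a scanner, and near-equal array medians show that the arrays had been scaled. Nothing further was normalised. Scanner files were not used here, so whether a single probe set was detected was not assessed. The number of arrays limits the precision. Signals of different probe sets are not comparable in height.

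Of 22810 probe sets, 64 controls were left out and 15922 of the other 22746 passed a filter at the 30th percentile (5.72) of the mean over 9 arrays. Gene names came from the array's platform annotation, updated with a RefSeq gene table (TAIR10.1) that served for names only. These tables hold no gene descriptions, so classes by description that had been planned were not applied, and roles were assigned by hand after the values were seen. No sequences were printed. Groups and replicate numbers came from the sample titles.

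Members and lists were chosen with earlier results of these data known. Limma 3.58.1 in R 4.3.3 fitted 1 mean per genotype to 8 arrays, without Col-0 replicate 2, with eBayes moderation and Benjamini-Hochberg adjustment over all 15922 probe sets (threshold 0.05, 2-sided). The fit had 5 residual degrees of freedom plus 4.37 from moderation. The procedure was tested on simulated data. A gene with several probe sets stood in a list by its brightest one. Named were the 20 members with the widest gap, members on a list, those nearest the threshold on each side, and, where under 5 passed a contrast, the 5 with the smallest unadjusted p. Other members were named to complete the role groups, after their values were seen. Alternatives were quantile normalisation, median centring, other filters and thresholds, all 9 arrays, 2 genotypes only, trended and robust eBayes, array weights, a replicate block and leaving out each array.

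Whether replicate numbers pair samples was checked over the deviations from the genotype means, with all 9 arrays. Between ARF10 and Col-0 the correlations of same-numbered arrays were 0.478, 0.490 and 0.195, all above 0.1. Those of unlike-numbered arrays ran from -0.521 to 0.144. The numbers were therefore treated as a possible pairing in this contrast. Its main fit had no replicate term, and the fit with a replicate block is given as an alternative. Between mARF10 and ARF10 the same-numbered correlations were -0.082, 0.159 and 0.252, with -0.437 to 0.291 for unlike numbers. Between mARF10 and Col-0 they were -0.165, 0.480 and 0.243, with -0.647 to 0.609 for unlike numbers. Those genotypes were not taken as paired. The correlations include Col-0 replicate 2 and do not settle whether the numbers pair samples.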

Additional observations from a re-analysis of the deposited data

How the results depend on the processing

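The members depended most on the threshold of the gap. At 1.0 there were 29 members and at 0.6 there were 209, against 79 at 0.8. Leaving out each other array in turn gave 79 to 122 members, and the 122 came without mARF10 replicate 2, an alternative added after seeing the data. Quantile normalisation gave 78, of which 73 were shared, and median centring 71, of which 70 were shared.

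For mARF10 against ARF10 the count of 267 fell to 65 with Col-0 replicate 2 included and was 1003 with array weights. It was 59 to 397 when each array was left out in turn, and was over 1.5 times smaller without each mARF10 or ARF10 array in turn (lowest without ARF10 replicate 3). The count of members called was 5 with array weights, 1 with a replicate block, and 0 to 1 with each array left out (1 without mARF10 replicate 2 or 3). With array weights AT5G22320 (-0.30, adjusted p of 0.0411 by limma) and AT3G01160 (-0.29, adjusted p of 0.0426) passed.

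For mARF10 against Col-0 the count of 11 became 0 with Col-0 replicate 2 included, 0 with the arrays of the 2 genotypes only, 6 with quantile normalisation, 5 without a filter, 4 with trended and robust eBayes and 2 with a replicate block. Leaving out each array gave 1 to 16, with 3 or fewer without Col-0 replicate 3, mARF10 replicate 1 or 3, or any ARF10 array. For ARF10 against Col-0 leaving out each array gave 0 to 46, where 46 were called if Col-0 replicate 1 was missing and 13 if replicate 3 was missing; 1 Col-0 array then remained and was assumed to vary like the other genotypes.

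With Col-0 replicate 2 included, which the rule made high, the members' estimates against Col-0 were negative in 78 of 79 for mARF10 and in 79 of 79 for ARF10. Of the genes named for these contrasts, 5 changed sign: AT4G36860 (-0.23) against Col-0 in mARF10, and AT1G06720 (-0.27), AT4G20230 (-0.13), AT3G48710 (-0.34) and AT3G24080 (-0.14) in ARF10. The members' medians were then -0.38 and -0.34, against 0.01 and 0.10 without it. The replicate block, for the pairing by number, called 221 probe sets in mARF10 against ARF10 and 0 in ARF10 against Col-0, where it changed no call. The causes of these changes were not tested.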
